A study of Arabidopsis thaliana with 28 samples.

Results

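Open chromatin was followed at 8 Arabidopsis genes that encode the main nitrate and ammonium uptake transporters: NRT1.1 (AT1G12110), NRT1:2 (AT1G69850), NRT2.1 (AT1G08090), NRT2.2 (AT1G08100), AMT1;1 (AT4G13510), AMT1;2 (AT1G64780), AMT1;3 (AT3G24300) and AMT1;5 (AT3G24290). They were chosen by locus, for what they encode, out of 27444 protein-coding genes of the 5 nuclear chromosomes, and all 8 were found in the gene table. Earlier results of these data were known when these 8 genes and the gene lists used below were chosen. The libraries were made by ATAC-seq, in which a transposase inserts adapters into accessible DNA of sorted nuclei. Peak lists of 16 libraries were used. The 12 RNA-seq samples of the series were not analysed here. The groups were arr1,10,12 roots with 2 BA and 2 control libraries, wild-type (WT, Col-0) roots with 4 BA and 4 control libraries, and WT shoots with 2 BA and 2 control libraries. The mutant is affected in ARR1, ARR10 and ARR12, transcription factors of the type-B family through which cytokinin changes gene expression. BA is the synthetic cytokinin 6-benzyladenine, given at 5 µM for 45 min in liquid medium, and control tissue had the vehicle for the same time. Plant age and the alleles of the mutant were not given in the sources used here. The series text calls the replicates biological, and the spread between them is the only error that can be given.

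Plants take up nitrate through the NRT1 (NPF) and NRT2 families and ammonium through the AMT1 family, mostly at the root surface. NRT1.1 works at both low and high external nitrate and also acts as a nitrate sensor. NRT1:2 is a low-affinity transporter, and NRT2.1 and NRT2.2, neighbours on chromosome 1, belong to the high-affinity system that takes up nitrate when it is scarce. AMT1;1, AMT1;3 and AMT1;5 are high-affinity ammonium transporters of the outer root cells, and AMT1;2 serves the endodermis and cortex. AMT1;3 and AMT1;5 are neighbours on chromosome 3. Cytokinin is known to lower the transcripts of several of these genes, so the comparison of BA with control asks whether their chromatin moved within 45 min, and the mutant asks whether that needs type-B regulators.

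Each library held between 30778 and 36358 peaks that covered 19.7 to 28.7 Mb, with median peak widths of 427 to 537.5 bp. The lists give positions only, so sequencing depth is unknown and no peak has a height. The tissue labels were checked on marker genes: the 11 root marker windows were covered at 22.3% to 31.0% on average in the 12 root libraries and at 8.48% to 9.53% in the 4 shoot libraries, and the 12 shoot marker windows at 20.9% to 27.8% in root and 45.2% to 56.7% in shoot libraries. These are means of lists. Between WT roots and shoots, all 11 root markers were on average more covered in roots. Of the 12 shoot markers 10 were more covered in shoots, and the other 2, LHCA1 and KAN1, in roots. Peak positions do not show the mutant alleles, so the genotype label was not checked. In bulk tissue, fewer cells with an open site and a less open site per cell cannot be told apart. The measure used is the covered percent, the share of a window that lies under a peak, where the window is the gene body with 1 kb on each side. Because the gene table gives no strand, the 2 sides are called the low-coordinate and the high-coordinate flank.

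The 8 windows differed widely in how much of them was open. In WT roots the order, from most to least covered, was AMT1;1, AMT1;3, NRT1:2, NRT1.1, AMT1;2, AMT1;5, NRT2.1 and NRT2.2. AMT1;1 averaged 88.2%, more than 97.5% of all genes, whereas NRT2.2 averaged 0.399%, and the median gene had 22.7%. Neighbours in that order had overlapping ranges over the 8 WT root libraries, except that every library had AMT1;2 above all values of AMT1;5 and NRT2.1 above all values of NRT2.2. In WT shoots the order began with AMT1;1 at 91.4%, followed by NRT1:2, NRT1.1 and AMT1;2 at 51.7% to 54.8% with overlapping ranges, and the other 4 averaged 1.85% or less. In arr1,10,12 roots the first 5 places were the same as in WT roots, while NRT2.1 and AMT1;5, at 25.9% and 25.6%, stood in the opposite order with overlapping ranges.

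**Figure D1:**
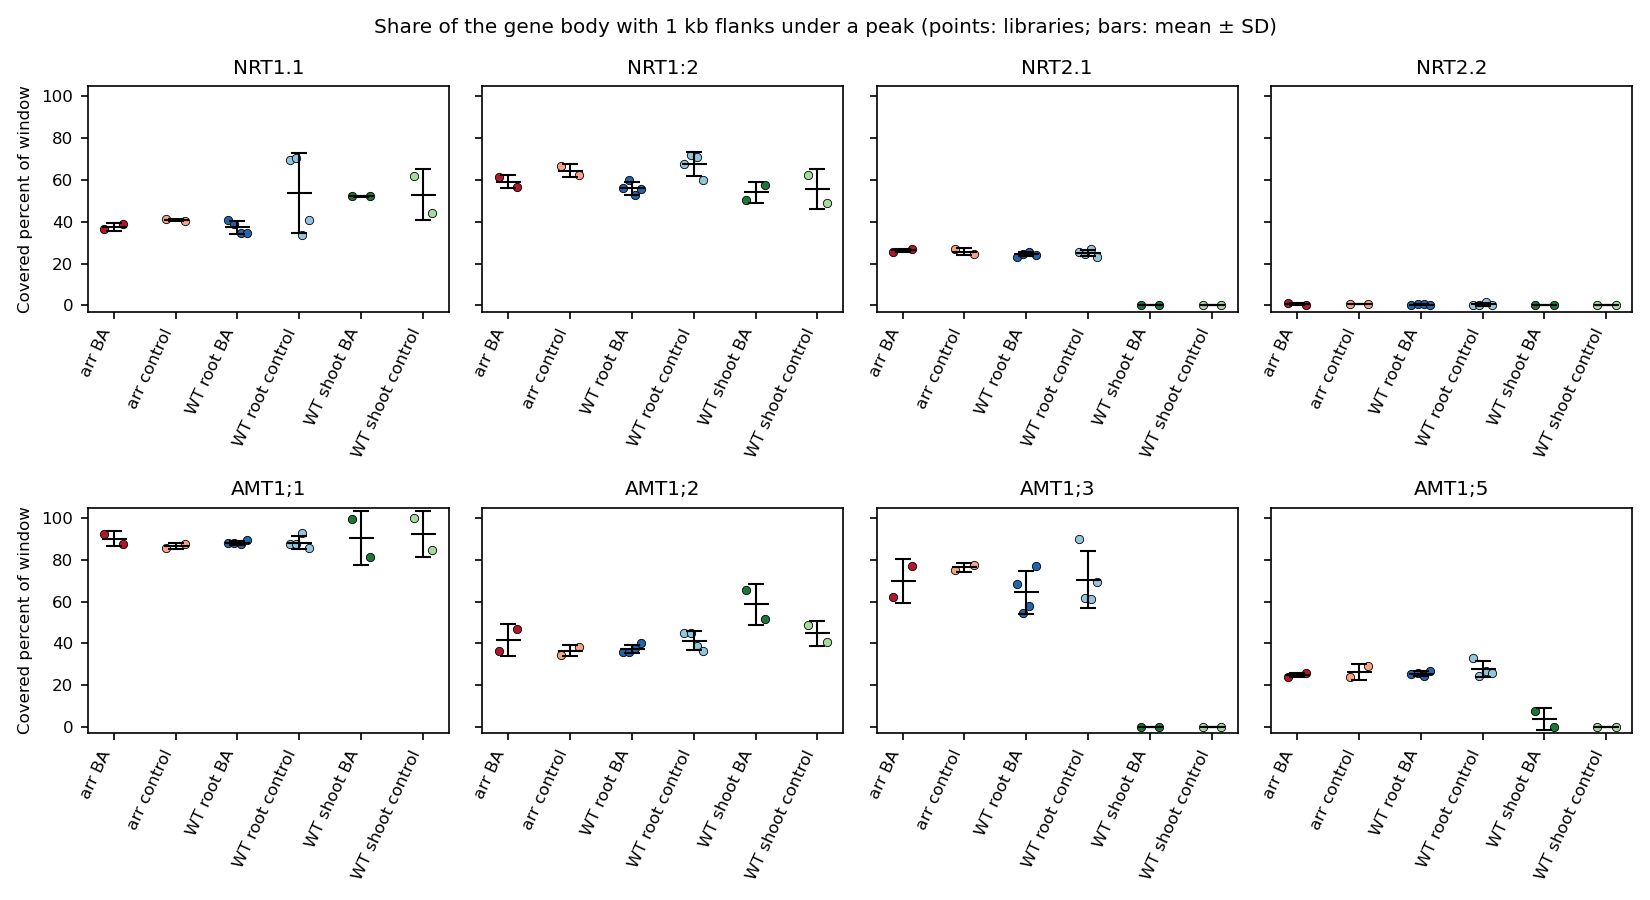
Covered percent of the window of each gene (vertical axis) in the 6 groups (horizontal axis), points are libraries, and the bars give the mean and SD. NRT2.1, AMT1;3 and AMT1;5 are covered in all 12 root libraries and at or near 0 in the 4 shoot libraries, except AMT1;5 at 7.39% in shoot BA replicate 1. AMT1;1 stays above 80% in every library, its lowest value being 81.4%.

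The comparison of WT roots with WT shoots separated 4 of the 8 genes. NRT2.1, AMT1;3 and AMT1;5 were more covered in roots, and AMT1;2 was less covered in roots. NRT1.1, NRT1:2, AMT1;1 and NRT2.2 did not pass over the whole window, although the flanks of NRT1:2 and AMT1;1, taken alone, did. Of all 24908 genes tested, 46.2% passed, 36.3% higher and 9.92% lower in roots, so that 4 of 8 is close to the share among all genes. The test was a two-sided exact permutation of the 8 root and 4 shoot libraries for every gene, adjusted by Benjamini-Hochberg over all genes, for which the smallest possible p is 0.00202. Root libraries had more coverage in general, with a median difference over genes of 3.37 percentage points. After the mean of each library was subtracted, the calls over all genes turned from 78.5% higher to 34.4% higher in roots, and the same 4 of the 8 genes passed in the same directions, joined by NRT2.2, whose window is at or near 0 in every library. Leaving 1 library out in turn kept the calls of NRT2.1, AMT1;3 and AMT1;5. The test takes single libraries as independent. In WT roots, however, libraries of the same number were alike (correlations of 0.316 to 0.464 between deviations from the treatment means). With the BA and control library of a number kept together (replicate block), the smallest possible p is 0.0667, so 0 genes of the 8 could pass.

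Among the nitrate transporters, NRT2.1 had the clearest difference between tissues. Its window was covered at 23.2, 24.7, 25.6 and 24.3% in BA-treated and at 25.8, 24.7, 26.8 and 23.1% in control WT roots. In shoots it was covered at 0 and 0.093% with BA and at 0 in both control libraries. The groups did not overlap (33.2% of all genes did not overlap in either direction), and the means were 24.8% ± 1.3 in roots and 0.0233% ± 0.047 in shoots (SD, n = 8 and 4, adjusted exact permutation p = 0.00709). The coverage lay in 1 place, the low-coordinate flank, of which 99.9% ± 0.22 was covered in WT roots and 0.1% ± 0.2 in shoots. There the stretch chr1:2523027-2524016 (TAIR10), 990 bp long, lay under a peak in all 12 root libraries and in no shoot library. The root peaks were 1462 to 1982 bp wide and began 1.47 to 1.83 kb outside the low-coordinate end of the gene. All 4 shoot libraries had a peak of 304 to 432 bp at the far end of that region, at or beyond the limit of the window. The merged region chr1:2522243-2524174 therefore held a peak in 8 of 8 root and 4 of 4 shoot libraries, and the tissues differed in how far the peak reached towards the gene.

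NRT2.2, the second high-affinity gene of the pair, had no peak in its body or its low-coordinate flank in any of the 16 libraries. Its window was covered at 0.399% ± 0.63 in WT roots and at 0 in all 4 shoots (SD, n = 8 and 4, adjusted exact permutation p = 0.407). The nearest peak began between 0.93 and 1.1 kb past the high-coordinate end in every library and only touched the limit of the window. That peak was 623 to 854 bp wide in the 12 root and 303 to 385 bp wide in the 4 shoot libraries, without overlap. With 2 kb flanks the difference was 6.3 percentage points and passed (adjusted exact permutation p = 0.00652). The 2 windows of NRT2.1 and NRT2.2 overlap, but no peak lay in the part they share.

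NRT1.1, the dual-affinity transporter and sensor, was open in every library. Its window was covered at 41.0, 39.0, 34.4 and 34.8% with BA and 69.4, 70.6, 33.4 and 41.0% without it in WT roots. Shoots had 52.5 and 52.2% with BA and 61.7 and 44.4% without. The root values fell into a pair of control libraries near 70% and 6 libraries between 33.4 and 41.0%, and the shoot values lay between those, so that the tissues overlapped (45.5% ± 15.4 against 52.7% ± 7.1, SD, n = 8 and 4, adjusted exact permutation p = 0.50). Control replicates 1 and 2 differed from the other root libraries in the gene body, of which 87.4% and 89.4% was covered against 40.4% and 51.3% in control replicates 3 and 4. In all, 1794 bp in 4 stretches, including chr1:4104952-4105294 over the low-coordinate end of the gene, lay under a peak in all 16 libraries.

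NRT1:2, the low-affinity transporter, differed between the tissues in a flank but not past the threshold over the whole window. The whole window was covered at 61.9% ± 7.5 in WT roots and 54.8% ± 6.3 in shoots (SD, n = 8 and 4, adjusted exact permutation p = 0.226). Its high-coordinate flank was covered at 92.6, 90.7, 82.6 and 91.1% with BA and 89.3, 100, 96.6 and 100% without it in WT roots, and at 8.0 and 62.7% with BA and 48.3 and 42.3% without it in shoots. Every root library lay above every shoot library, and the difference was 52.5 percentage points (adjusted exact permutation p = 0.00847, where 37.9% of 20109 high-coordinate flanks passed). In WT root control replicates 2 and 4 a peak of 4520 or 3336 bp ran out of the gene across the whole flank. In the other 6 WT root libraries the flank was shared by at least 2 peaks, and in shoot BA replicate 1 only the end of 1 peak of 468 bp reached it.

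AMT1;3 and AMT1;5, the neighbouring ammonium transporters, were both more covered in roots, by 67.4 and 24.6 percentage points. AMT1;3 was covered at 68.2, 54.3, 57.8 and 76.9% with BA and 89.9, 61.8, 61.0 and 69.2% without it in WT roots, and its window held no peak in any of the 4 shoot libraries. The means were 67.4% ± 11.6 in roots and 0 in shoots (SD, n = 8 and 4, adjusted exact permutation p = 0.00709). The stretch chr3:8807221-8808260, 1040 bp at the high-coordinate end of the gene, was open in all 12 root libraries. In shoots the nearest peaks on that side began 3.98 to 4.10 kb from the low-coordinate end of the gene, outside the window and towards MYB305, the next gene. AMT1;5 was covered at 24.1 to 33.0% in the 8 WT root libraries, with a median of 25.8%. Shoots had 7.39 and 0% with BA and 0 in both control libraries, so the tissues did not overlap (26.5% ± 2.8 against 1.85% ± 3.7, SD, n = 8 and 4, adjusted exact permutation p = 0.00709). The value of shoot BA replicate 1 was a single peak of 258 bp inside the gene.

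For AMT1;5 the higher coverage in roots lay wholly in the DNA between the 2 genes, and for AMT1;3 it lay there in part. The low-coordinate flank of AMT1;5 had no peak in any library. Its body had a peak in 1 of 8 WT root and 1 of 4 shoot libraries and was on average less covered in roots. The call of AMT1;5 over the whole window thus came from its high-coordinate flank, which faces AMT1;3. The stretch between the high-coordinate end of AMT1;5 and the low-coordinate end of AMT1;3 was covered at 84.4 to 97.7% in the 8 WT root libraries (median 94.1%) and at 0 in all 4 shoot libraries. The peak there, chr3:8802951-8805724 when merged over WT libraries, was present in 8 of 8 root and 0 of 4 shoot libraries (two-sided Fisher's exact test, p = 0.00202, adjusted p = 0.0247). It was the only one of the 15 merged regions at these genes that passed, where 8.17% of 32001 regions did. Without any 1 of the 4 shoot libraries no region at the genes passed, since the smallest p is then larger, and without root control replicate 2 there were 2. The 2 windows do not overlap, but 1 continuous peak reached into both of them in 4 of 8 WT root and 4 of 4 arr1,10,12 libraries, and in the other 4 WT root libraries each window had a peak of its own there. AMT1;3 also differed outside this stretch, in its body (39.0% ± 25.3 in WT roots and 0 in shoots) and in its high-coordinate flank (97.8% ± 3.4 in WT roots and 0 in shoots).

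AMT1;2, the endodermal and cortical ammonium transporter, was the gene with less coverage in roots. It had 36.0, 35.7, 37.8 and 40.1% with BA and 45.2, 45.0, 38.6 and 36.4% without it in WT roots, against 65.5 and 51.7% with BA and 49.0 and 40.6% without it in shoots. The ranges overlapped through shoot control replicate 2, and the means were 39.3% ± 3.8 and 51.7% ± 10.4 (difference -12.4 percentage points, SD, n = 8 and 4, adjusted exact permutation p = 0.0216). That call rested on the BA-treated shoots. Without shoot BA replicate 1 the difference was -7.75 percentage points and the adjusted exact permutation p was 0.0564, and without shoot BA replicate 2 that p was 0.0582. The difference was -21.2 percentage points between BA-treated libraries and -3.49 between control libraries.

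The flanks of AMT1;2 differed in opposite directions, which the whole window does not show. The low-coordinate flank was covered at 27.2% in WT root control replicate 2 and at 0 in the other 7 WT root libraries, but at 47.3 and 48.1% with BA and 74.3 and 44.5% without it in shoots (3.40% ± 9.6 against 53.6% ± 13.9, SD, n = 8 and 4, adjusted exact permutation p = 0.00865). The high-coordinate flank was covered at 69.6 to 86.0% in WT roots and 30.8 to 59.6% in shoots (78.3% ± 5.5 against 42.5% ± 12.3, adjusted exact permutation p = 0.00847). Neither flank overlapped between tissues, in BA-treated or in control libraries. The peak of the low-coordinate flank, chr1:24059799-24060592, was present in 1 of 8 root and 4 of 4 shoot libraries (Fisher's exact test p = 0.0101, adjusted p = 0.0950).

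AMT1;1, a high-affinity ammonium transporter, was almost fully open in both tissues. Its window was covered at 85.4 to 92.6% in the 8 WT root libraries, with a median of 87.6%, and at 99.6 and 81.4% with BA and 100 and 84.5% without it in shoots. In each treatment 1 shoot library lay above all root values and 1 below them, and the means were 88.2% ± 2.1 and 91.4% ± 9.8 (SD, n = 8 and 4, adjusted exact permutation p = 0.475). In BA-treated WT roots 1 peak of up to 3973 bp spanned the gene. The low-coordinate flank, into which the body of the neighbour AT4G13500 reaches, was less covered in roots, at 51.8% ± 8.2, than in shoots, at 87.6% ± 13.4 (adjusted exact permutation p = 0.00865, without overlap).

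Over the flanks alone, 6 of the 8 genes differed between the tissues: NRT2.1, AMT1;1, AMT1;2 and AMT1;3 in the low-coordinate flank, and NRT1:2, AMT1;2, AMT1;3 and AMT1;5 in the high-coordinate flank. The shares among all genes were 37% of 20004 low-coordinate and 37.9% of 20109 high-coordinate flanks. Those shares count each side by itself. The share of all genes with a call in either flank is not given here, so the count of 6 genes has no background beside it. These flank tests were added after the peak maps had been seen. All 8 calls held when any 1 of the 12 libraries was left out, with adjusted exact permutation p of 0.0120 to 0.0239. With the replicate block the smallest possible p is 0.0667, so none of these calls could pass it.

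**Figure D2:**
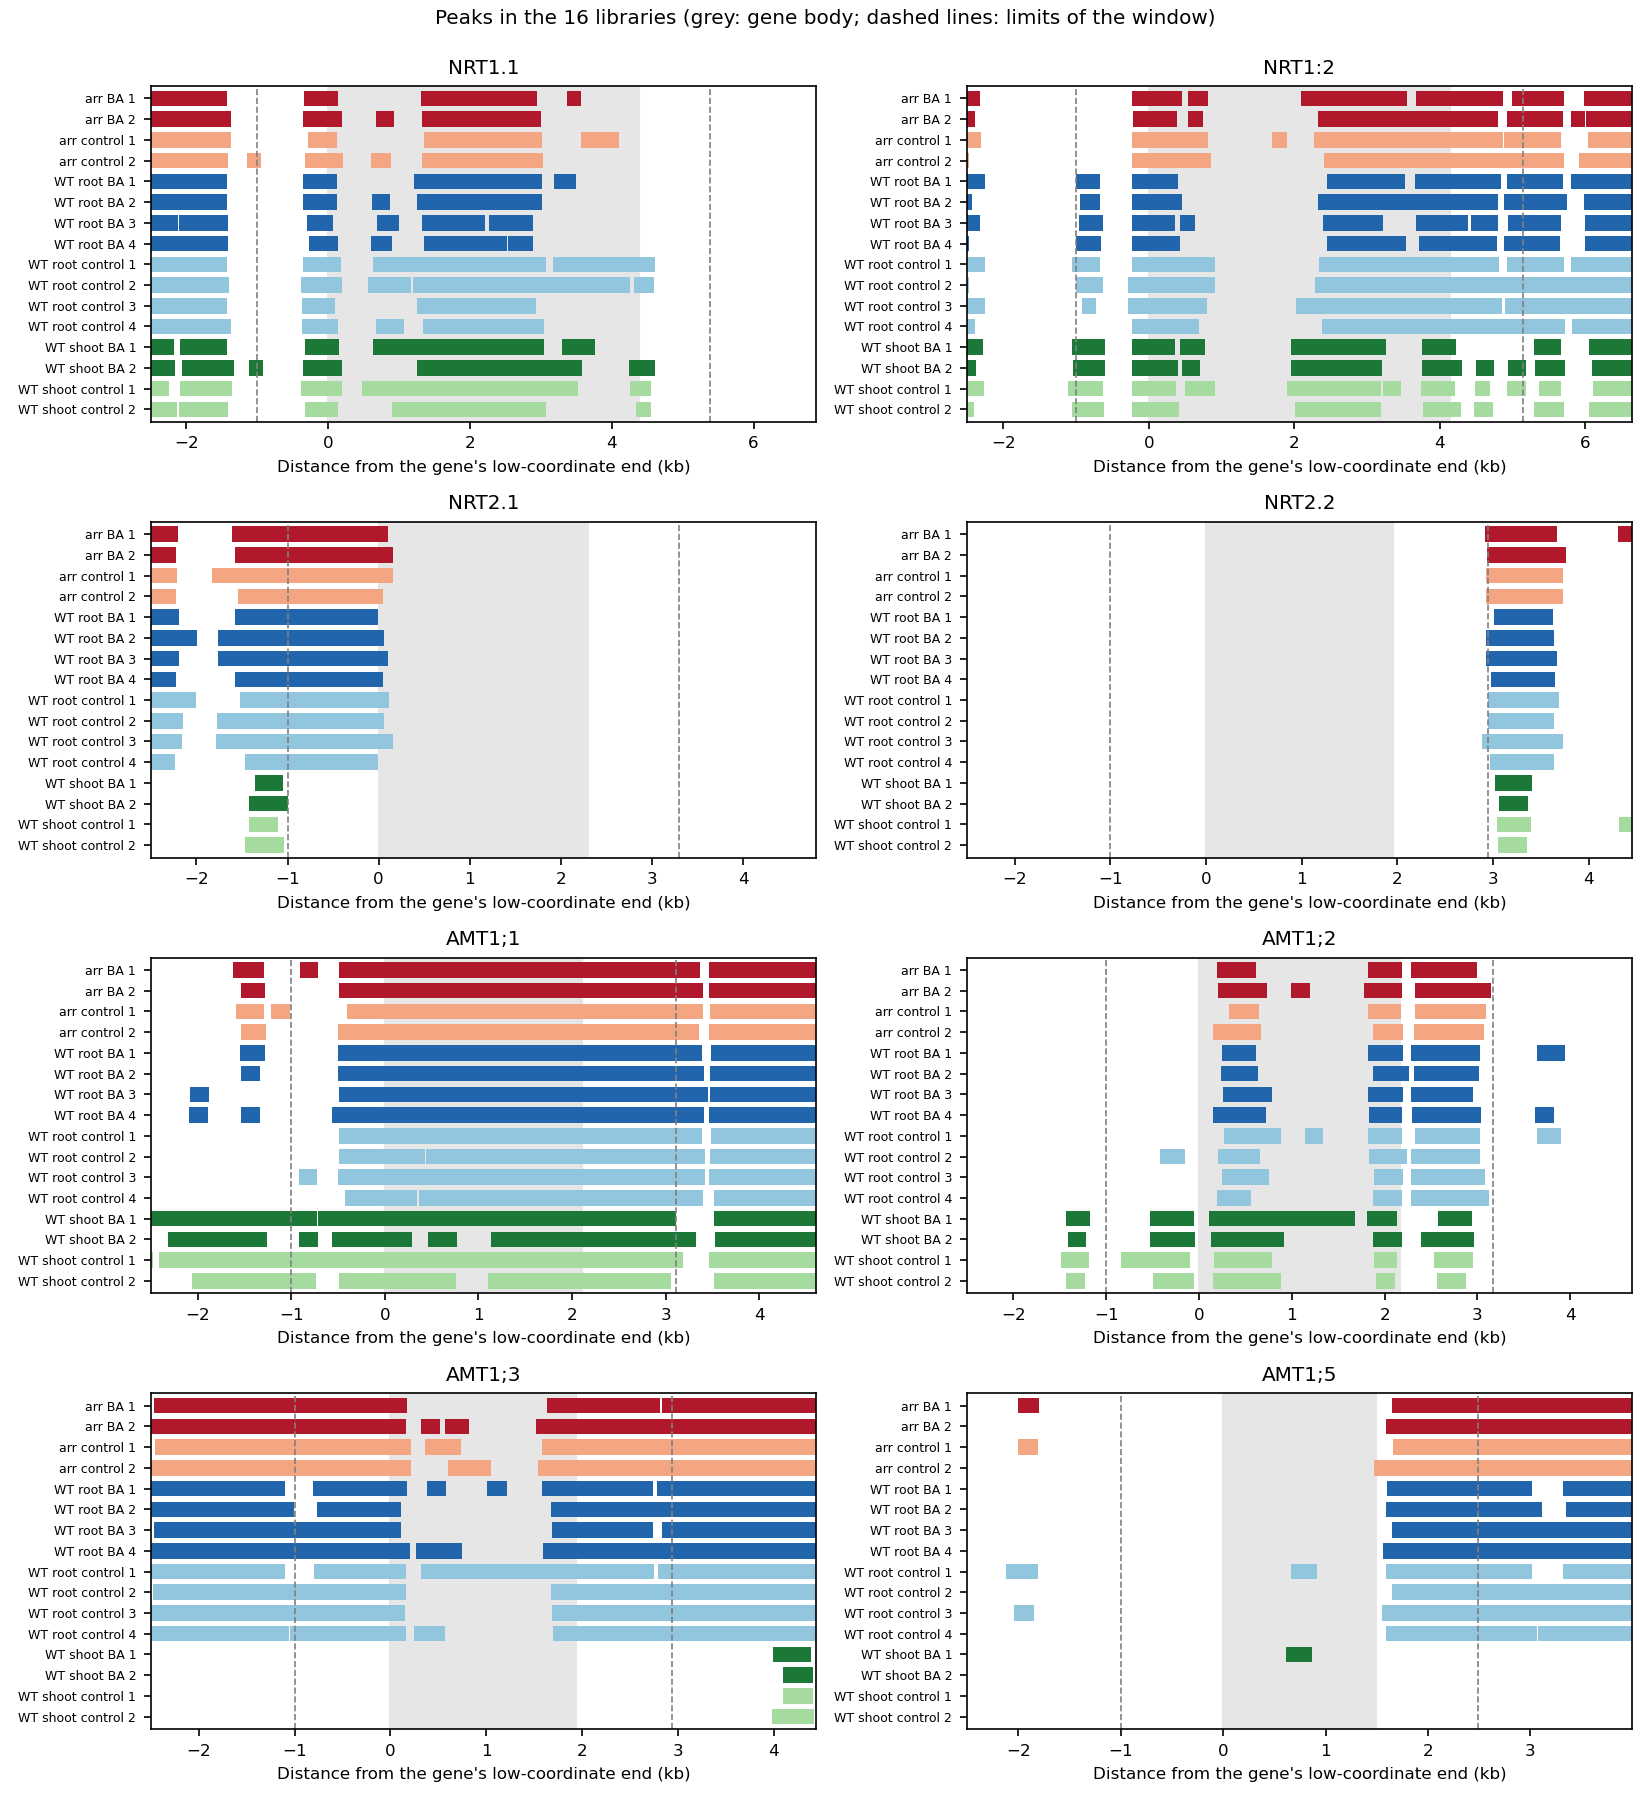
Peaks (coloured bars) at the 8 genes in the 16 libraries (1 row each, 4 arr1,10,12 root libraries at the top, then 8 WT root and 4 WT shoot libraries) against the distance from the low-coordinate end of the gene in kb, grey marks the gene body and dashed lines the window. The root peaks on the low-coordinate side of NRT2.1, on both sides of AMT1;3 and on the high-coordinate side of AMT1;5 have no counterpart of that extent in shoots, and the shoot peak just outside the low-coordinate end of AMT1;2 appears in 1 root library.

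After 45 min of BA, no difference at the 8 genes in WT roots passed the test of 4 against 4 libraries. None of the 24416 genes tested passed the adjusted exact permutation test (0% called), whose smallest unadjusted p is 0.0286, and limma called 0 as well. With that smallest p, no gene can pass the adjustment of the permutation test unless a large share of all genes differs. Its outcome therefore does not show that BA left the chromatin unchanged. Over the whole window 0 of the 8 genes had an unadjusted p under 0.05, where 3.12% of all genes had one. The mean was lower with BA at all 8 genes, with a median difference of -2.93 percentage points. This also held for 79.5% of all genes, whose median difference was -1.69, and 3 of the 8 genes, NRT2.1, NRT2.2 and AMT1;1, turned higher with BA once the library mean was subtracted.

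The largest differences with BA in WT roots were at the 2 NRT1 genes. NRT1.1 averaged 37.3% ± 3.2 with BA and 53.6% ± 19.2 without it (SD, n = 4 each, difference -16.3 percentage points, exact permutation p = 0.257), with the wide peaks of control replicates 1 and 2 on the control side. Of all 16 libraries these 2 controls had the most DNA under peaks, 28.7 and 28.0 Mb. What part this had in the difference was not tested. NRT1:2 was covered at 56.1, 60.0, 52.6 and 55.5% with BA and at 67.6, 72.0, 71.2 and 59.9% without it. All 4 pairs of the same replicate number were lower with BA, by 4.39 to 18.6 percentage points, and the ranges met only at BA replicate 2 and control replicate 4. The means were 56.0% ± 3.0 and 67.7% ± 5.5 (SD, n = 4 each, difference -11.6, exact permutation p = 0.0571, adjusted 0.870, limma p = 0.00447, adjusted 0.818). The replicate numbers pair these libraries, and over pairs the smallest p is 0.125. In the body of NRT1:2 alone the ranges did not overlap, at 44.8 to 54.8% with BA and 58.9 to 70.5% without it. Both of its flanks overlapped, and the share of all gene bodies without overlap is not given here. AMT1;3 differed by -6.19, AMT1;2 by -3.90 and AMT1;5 by -1.96 percentage points, each with overlapping groups. NRT2.1, NRT2.2 and AMT1;1 differed by less than 1 point.

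**Figure D3:**
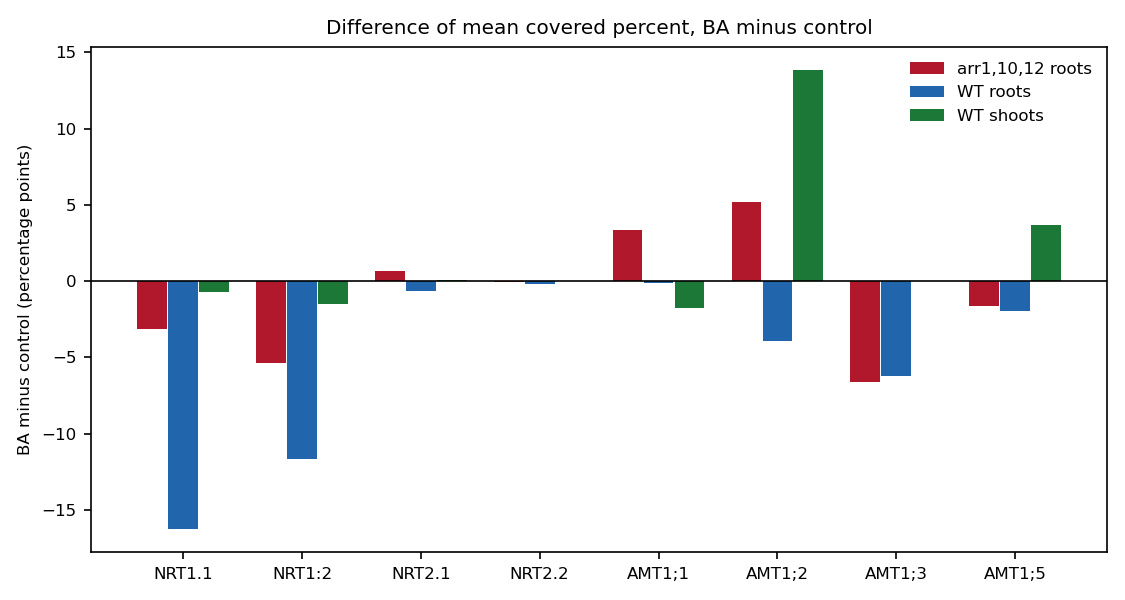
Difference of the mean covered percent, BA minus control in percentage points (vertical axis), for each gene in arr1,10,12 roots, WT roots and WT shoots. The WT root bars all lie below 0, with the longest at NRT1.1 (-16.3) and NRT1:2 (-11.6), and the AMT1;2 bar is above 0 in shoots (13.9).

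NRT1:2 was also the only 1 of the 8 genes with a region in the authors' deposited table of differential regions. The root table of 760 regions has chr1:26296643-26296960, 318 bp just inside the low-coordinate end of the gene, while no region of the shoot table lies in any of the 8 windows. Among all genes 2.18% had a root and 2.4% a shoot region in the window. The tables give no direction, fold or p for single regions, and are labelled only with a fold change of 1.2. In the peak lists this stretch was covered at 94.1% ± 9.1 in WT roots with BA (80.8 to 100) and at 100% in all 4 control libraries.

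The peak over that end of NRT1:2 was narrower with BA in roots of both genotypes, in arr1,10,12 roots mostly through a break between peaks. In arr1,10,12 roots it was 692 and 605 bp wide with BA and 1039 and 1094 bp wide without it. In WT roots it was 634, 689, 586 and 650 bp wide with BA, against 1133, 1193, 1086 and 921 bp without it. In WT shoots it was 585 and 634 bp with BA and 607 and 641 bp in control. No root library with BA reached the width of a root control, and the shoots had narrow peaks in both treatments. In WT roots the difference lay inside the gene, where chr1:26297176-26297224 was under a peak in all 4 WT root control libraries and in none of the 4 WT root libraries with BA. That stretch was under a peak in all 4 arr1,10,12 libraries, BA and control, in both BA-treated shoots and in 1 of 2 control shoots. In both arr1,10,12 BA libraries and in WT root BA replicate 3 a separate short peak lay just beyond the narrow one. The same was seen in both BA-treated shoots and in shoot control replicate 1. In arr1,10,12 roots the short peak ended at chr1:26297350 and chr1:26297283 with BA. The single peak of the arr1,10,12 controls ended at chr1:26297353 and chr1:26297397. There the narrowing was thus mostly a break between peaks, and in WT root BA replicate 3 part of it was. This width was singled out after the peak map had been seen and is given without a test. Peaks were narrower with BA in WT roots in general. The median peak width of every WT root library with BA was below that of every WT root control. In arr1,10,12 roots these medians overlapped between the treatments. The share of all peaks that split by treatment in this way is not given here, and whether the narrowing was particular to NRT1:2 was not tested. The stretch chr1:26297176-26297224 was found by searching the windows for bases with that split of the WT root libraries. The split therefore follows from the choice, and the share of all genes with such a stretch is not given here.

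**Figure D4:**
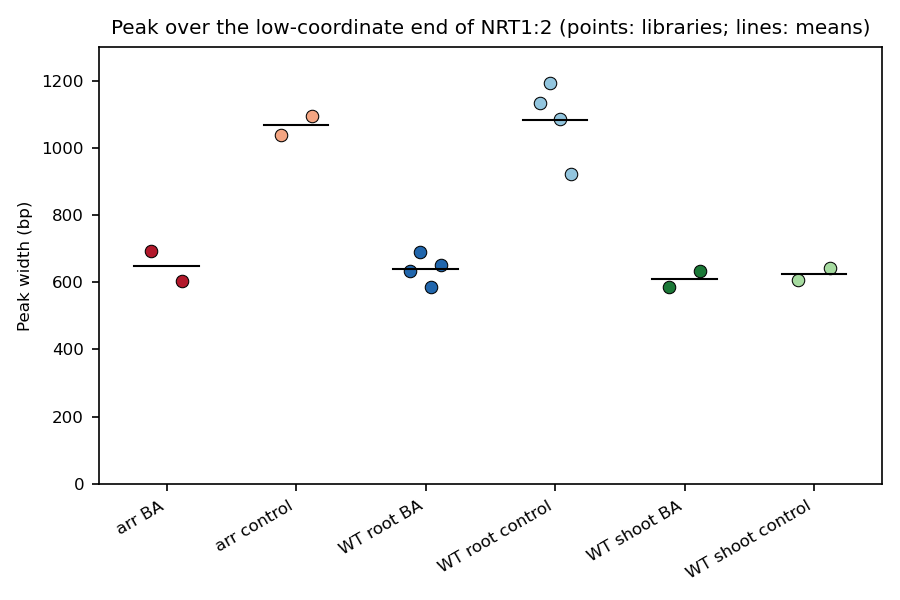
Width in bp (vertical axis, from 0) of the peak over the low-coordinate end of NRT1:2 in each library (points) of the 6 groups, horizontal lines are group means. The 6 root libraries with BA lie between 586 and 692 bp and the 6 root control libraries between 921 and 1193 bp.

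In WT shoots, with 2 libraries on each side, the smallest exact p is 0.333 and only values can be given. AMT1;2 was covered at 65.5 and 51.7% with BA and at 49.0 and 40.6% in control, without overlap, as were 14.3% of all genes in that direction. The difference of the means was 13.9 percentage points, against -3.90 in WT roots. The difference between these effects, 17.7 percentage points, had an exact permutation p of 0.0333 before and 0.992 after adjustment over all genes, where 4.46% had an unadjusted p under 0.05. The gene body was covered at 87.1% in shoot BA replicate 1 and 49.7% in BA replicate 2, against 40.4% and 43.3% in the controls. No other gene of the 8 differed by more than 4 points in shoots, the next being AMT1;5 with 3.70.

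In arr1,10,12 roots, also with 2 libraries on each side, NRT1.1 and NRT1:2 were lower with BA without overlap. NRT1.1 was covered at 36.3 and 38.8% with BA and 41.1 and 40.3% in control, and NRT1:2 at 61.3 and 56.9% with BA and 66.6 and 62.2% in control. Among all genes 21.5% were lower without overlap, so 2 of 8 is near the background. The differences of the means were -3.14 and -5.35 percentage points, against -16.3 and -11.6 in WT roots. Neither pair of effects differed past the threshold of the permutation test within genotypes (exact p = 0.371 for NRT1.1 and 0.357 for NRT1:2, both adjusted to 1), and none of the 8 genes reached an unadjusted p under 0.05, where 1.88% of all genes did.

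Between arr1,10,12 and WT roots, no difference at the 8 windows passed. The test set 4 arr1,10,12 against 8 WT root libraries, and none of the 24491 genes passed either (0% called, whereas limma called 0.294% of genes and none of the 8). At an unadjusted p under 0.05 there were also 0 of the 8, where 10.1% of all genes had one. The largest differences were -6.29 percentage points at NRT1.1 (39.2% ± 2.1 against 45.5% ± 15.4, SD, n = 4 and 8, exact permutation p = 0.493) and 5.59 at AMT1;3 (73.0% ± 7.3 against 67.4% ± 11.6, exact permutation p = 0.390). At NRT1.1 it was 0.282 between the BA libraries and -12.9 between the control libraries, which include the 2 WT controls with wide peaks. The DNA between AMT1;5 and AMT1;3 was covered at 93.5 to 100% in the 4 mutant libraries. The low-coordinate flank of NRT2.1 was covered at 100% in all 4.

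The clearest difference by genotype was a single peak near NRT1:2. The region chr1:26295488-26295904, in the low-coordinate flank where the body of the neighbour AT1G69840 also lies, had a peak in 0 of 4 arr1,10,12 and in 7 of 8 WT root libraries, the exception being control replicate 4. All 4 WT shoot libraries had it too. Fisher's exact test gave p = 0.0101, an unadjusted level that 0.816% of 30896 regions reached, and an adjusted p of 1. The flank as a whole was covered at 23.6 and 21.6% with BA and 22.5 and 23.6% in control in arr1,10,12, against 55.4, 50.9, 55.0 and 56.2% with BA and 55.1, 64.5, 48.9 and 23.6% in control in WT roots. The mutant values and WT control replicate 4 lay together and the other 7 WT libraries lay above them. Over the whole window the genotypes differed by -0.126 percentage points. In the flank the difference of -28.4 percentage points had an exact permutation p of 0.00606 and an adjusted p of 0.300, and 9.78% of low-coordinate flanks had an unadjusted p under 0.05.

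The other genes of nitrogen transport and its control, 38 in 5 lists, give the setting of the tissue differences. Of the 37 whose window varied, 15 passed higher and 4 lower in WT roots than in shoots, with a median difference of 8.56 percentage points against 3.37 over all genes. That is 51.4% of the list genes in either direction, where 46.2% of all genes passed. After the mean of each library was subtracted, 10 were higher and 5 lower of 38. In the high-affinity nitrate list 3 of 6 were higher. NRT3.1 (listed as WR3), the partner protein that NRT2.1 needs, was covered at 76.1% ± 1.9 in roots and 46.5% ± 12.7 in shoots. NRT2.3 had 29.8% ± 6.7 and 2.37% ± 2.7, while NRT2.7, a transporter of seeds, was lower with 56.9% ± 13.1 and 77.9% ± 5.3 (SD, n = 8 and 4). In the low-affinity list 3 of 9 were higher and 2 lower. NRT1.9 stood at 17.6% ± 6.3 in roots and 1.08% ± 2.2 in shoots, and NRT1.7, which loads nitrate into the phloem of leaves, stood at 35.5% ± 10.2 and 77.0% ± 8.3, and NRT1.11 at 0.382% ± 1.1 and 18.8% ± 3.1.

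Of the 18 nitrate signalling genes, 17 varied, and of these 9 passed higher in roots and 0 lower, where 36.3% of all genes were higher and 9.92% lower. After subtraction of the library mean 7 were higher and 1 lower. HRS1, a repressor of the nitrate response, was covered at 79.9% ± 5.0 in roots and 7.02% ± 6.9 in shoots, and AT3G25790 at 69.4% ± 2.4 and 13.3% ± 2.8 (SD, n = 8 and 4). TGA1, a bZIP factor of that response, had 53.0% ± 6.4 and 28.0% ± 1.5. Of the 3 anion channels and exchangers, SLAH3, a nitrate and chloride channel, was lower with 57.0% ± 7.8 and 84.0% ± 4.7, and 0 of the other 2 ammonium genes passed. With BA in WT roots 0 of 36 passed, and NRT1.8 alone had an unadjusted exact permutation p under 0.05 (12.6% ± 5.7 with BA and 21.2% ± 3.4 without it, p = 0.0286). Among all genes 3.12% had one, and the adjusted test could pass a gene only if a large share of all genes differed. In arr1,10,12 against WT roots 0 of 36 passed. NRT1.7 had an unadjusted exact permutation p of 0.0343 (21.9% ± 4.4 against 35.5% ± 10.2) and NAXT1 one of 0.0222 (51.4% ± 5.8 against 40.8% ± 6.3). They were the only 2 of the 36 under 0.05, where 10.1% of all genes were. The authors' deposited table of root regions held 1 each in the windows of LBD38 and HRS1, and the shoot table held 1 each at LBD38 and NRT3.1.

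**Figure D5:**
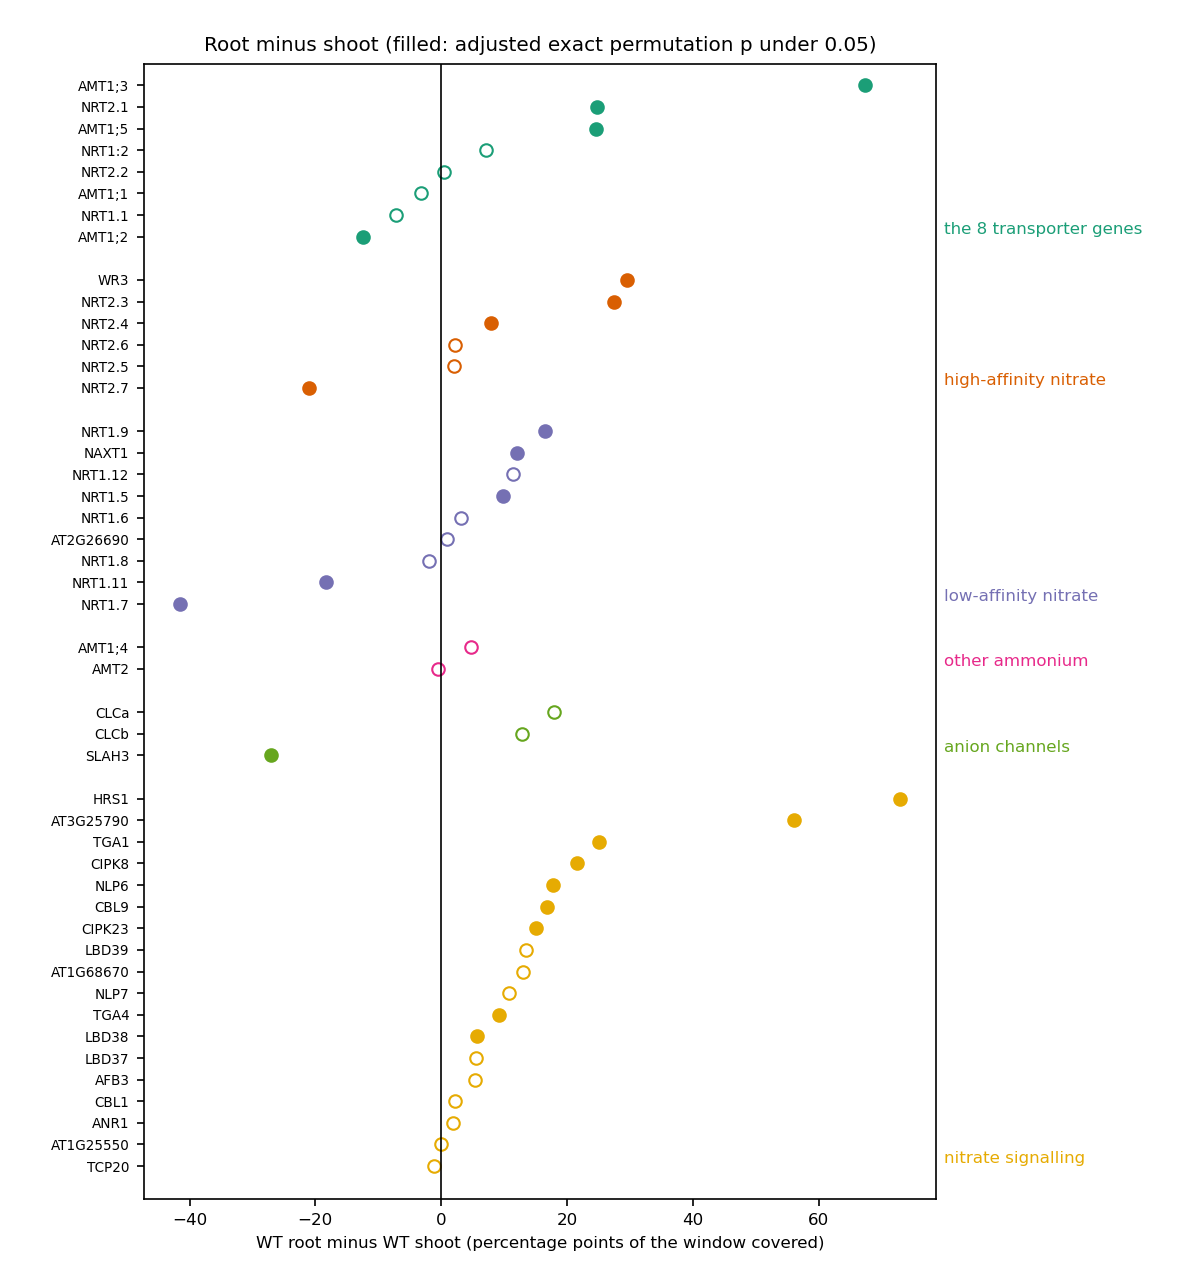
WT root minus WT shoot difference of the covered percent in percentage points (horizontal axis) for the 8 transporter genes and the 38 other nitrogen genes by list, filled points passed the adjusted exact permutation test. AMT1;3 (67.4) and HRS1 (72.9) lie farthest to the right, and NRT1.7 (-41.5) farthest to the left.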

How the data were processed

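ATAC-seq peak lists of 16 libraries and the authors' 2 tables of differential regions were used. The build was TAIR10. Tools named in the submitters' processing notes are HOMER 4.9.2, deepTools 2.5.2, SAMtools 1.5 and Bowtie 1.2.0, but their roles, settings and peak thresholds are not given in the sources used here. The deposited files hold chromosome, start and end, and no count, signal or score, so depth and counting error are unknown. Peaks were called per library, as each library has its own list. At most 38 peaks had equal coordinates in any 2 libraries, so no library duplicated another.

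Gene positions came from a RefSeq table that names TAIR10.1. In 62 of 62 bins of 2 Mb the peaks and genes were aligned within 100 bp. The table's coordinates are not printed and it gives no strand. No gene sequence was used here.

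The covered percent of each window was compared by two-sided exact permutation over libraries (Python 3.11.15, numpy 2.4.6, scipy 1.17.1) for every gene whose value varied, adjusted by Benjamini-Hochberg at 0.05. Limma 3.58.1 was an alternative. Merged peaks present in at least 2 libraries were tested by Fisher's exact test. The 8 genes and all lists were chosen with earlier results of these data known. All 8 genes are described. Of the other lists, genes with a differential region and up to 3 of largest difference per list and comparison were eligible for naming. The tests were tried on simulated data first. Alternatives were the gene body alone, 2 kb flanks, subtraction of the library mean, peaks of at least 300 bp, 1 library left out, and the replicate block. Flanks alone were added after the data were seen.

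In WT roots, deviations from the treatment means correlated at 0.316 to 0.464 between libraries of the same number and at -0.342 to 0.232 between others, so the numbers pair the libraries.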

Additional observations from a re-analysis of the deposited data

Results flagged for a closer look

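The NRT2.2 window in WT root control replicate 3 was covered at 1.8%, far from the other 3 control libraries at 0 to 0.127%. Its peak past the high-coordinate end reached farther into the window than in any other library. Of 16 groups of 4 tested for a value far from the rest this was the only one flagged, and chance flags about 1 in 20.

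The effect of BA on AMT1;2 differed between WT shoots and WT roots by 17.7 percentage points (13.9 in shoots and -3.90 in roots). It was flagged because the exact permutation p of the difference was 0.0333 before adjustment, with 2 libraries a side in shoots. Both shoot pairs were higher with BA, by 11.1 and 16.6 percentage points, and 3 of 4 root pairs were lower. It did not pass adjustment over all genes (0.992).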

How the results depend on the processing

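Of the counts and means recomputed under the alternatives, 124 stayed within 1.5 times or 1 SD of the value reported, 9 were lower, 3 higher and 2 moved by more than 1 SD. Sequencing depth is unknown, so what it limits cannot be given. For roots against shoots in WT, 4 genes passed, against 1 (AMT1;3) by the gene body alone and 0 with the replicate block, with control libraries only or with BA libraries only, where the smallest possible p is 0.0667 and the differences were 21.8 to 70.5 percentage points at NRT2.1, AMT1;3 and AMT1;5. No paired test of BA can reach the threshold either, as its smallest p with the replicate block is 0.125. The block changed no other call over the whole window, and no call between tissues over a flank alone could pass it. Differences that turned were those of AMT1;1 (10.3 by the body alone and 1.1 by the high-coordinate flank alone), AMT1;5 (-2.22 by the body alone), NRT2.2 (-4.33 after subtraction of the library mean), NRT1.1 (0.568 with control libraries only), NRT1:2 (-11.1 by the low-coordinate flank alone) and AMT1;2 (35.8 by the high-coordinate flank alone).

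For BA in WT roots, AMT1;1 turned to 0.261 by the body alone, 3.86 with 2 kb flanks, 1.75 after subtraction of the library mean and 1.1 with peaks of at least 300 bp. NRT2.1 turned to 0.163 with 2 kb flanks and 1.22 after subtraction, and NRT2.2 to 1.7 after subtraction. With 1 library left out the difference spanned -0.325 to 0.274 at NRT2.2, -1.05 to 1.34 at AMT1;1 and -10.4 to 0.285 at AMT1;3. None of these passed. For arr1,10,12 against WT roots, NRT1:2 turned to 6.54 by the body alone, 0.469 after subtraction, 3.02 with BA libraries only and 0.487 by the high-coordinate flank alone, and spanned -1.74 to 1.49 with 1 library left out. NRT1.1 turned to 0.282 with BA libraries only. The mean BA difference over the 8 genes in arr1,10,12 roots, -0.950, was 0.848 after subtraction and -2.66 with peaks of at least 300 bp.

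Of merged regions at the genes, 1 passed between tissues, against 0 when gaps of up to 100 bp were bridged, 5 when a peak had to cover 0.5 of the region, 2 with peaks of at least 300 bp and 0 to 2 with 1 library left out. The cause of these shifts was not tested.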

Other observations

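Genes whose covered percent followed a transporter gene most closely over the 16 libraries were taken by Pearson's r, as a description, since tissue is shared by all of them. NRT2.1 was followed by AHL19 (r = 0.997), an AT-hook protein gene covered at 94.6% in WT roots and 2.7% in shoots, and by AT3G01430 (r = 0.996). AMT1;3 was followed by AT2G37810 (r = 0.989), at 36.4% in roots and 0 in shoots, and AT1G05700 (r = 0.987). AMT1;5 was followed by CYP71A14, a cytochrome P450 gene (r = 0.992), and by AT2G44350 (listed as ATCS), a citrate synthase gene (r = 0.990). For NRT1.1, AMT1;2 and NRT1:2, which had peaks in both tissues, the closest r was lower: 0.935 for NRT1.1 with AT5G06430, 0.907 for AMT1;2 with AT1G17990 and 0.859 for NRT1:2 with IMPA-6.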
